A study of Mus musculus with 6 samples.

Results

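The genes of the TGF-beta and BMP pathway were compared between parental 22Rv1 cells and a subline of the same cells resistant to BL-B01D1. They were chosen by name among the protein-coding genes of the table: the BMP, TGFB, INHA and INHB ligand genes, the TGFBR and ACVR receptor genes with BMPR1A and BMPR2, the SMAD genes, NOG, GREM1, FST, BAMBI, SKI and SKIL, and ID1 to ID4. This gave 46 of the 58735 genes in the table, of which 19951 were protein-coding. They comprised 17 ligands, 11 receptors, 8 SMADs, 6 antagonists and regulators, and 4 ID genes. 22Rv1 cells are an established human line from prostate cancer, and BL-B01D1 is an antibody-drug conjugate whose bispecific antibody binds EGFR and HER3 and whose payload, Ed-04, inhibits topoisomerase I. The parental group received vehicle, and the resistant group came from 22Rv1 cells grown in stepwise higher BL-B01D1 concentrations. mRNA was sequenced from 3 libraries of each group, and as the study describes a single resistant subline, the spread between its libraries does not cover a repeated selection. The labels list mouse as the organism, whereas the cell line, the gene identifiers and the genome build (hg38) are human.

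Ligands of this family bind paired type I and type II receptors on the cell surface, and the activated type I receptor phosphorylates receptor-regulated SMAD proteins, which join SMAD4 and act on transcription in the nucleus. TGF-beta and activin signal mainly through SMAD2 and SMAD3, and BMPs through SMAD1, SMAD5 and SMAD9, while SMAD6 and SMAD7 restrain the pathway and the ID genes are classical targets of BMP signalling. TGF-beta is known to restrain the growth of normal prostate epithelium.

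Total counts ranged from 13821639 to 17251491 per library, so that 3 counts amounted to 0.174 to 0.216 CPM. CPM are the counts of a gene per 1e+06 counts of the library, with TMM scaling. The pathway genes took between 0.170% and 0.179% of all counts in each library. Of 10 prostate luminal epithelial markers, all 10 were detected well enough to be tested, with a summed level of 3448 to 3550 CPM in parental and 3640 to 3728 CPM in resistant libraries. Of 15 markers of stromal, immune, endothelial, basal and neuroendocrine cells, 8 had no library above 3 counts, among them CD3E, a T-cell marker, and KRT5, a basal keratin, at 0 in all 6 libraries. The summed level of the 15 was 246 to 263 CPM in parental and 148 to 162 CPM in resistant libraries. Of the 5 that could be tested, 3 were lower. LUM, which encodes the matrix proteoglycan lumican, and CHGA, a neuroendocrine marker, were lower in resistant cells, with log2 fold changes of -1.74 and -2.26, and COL1A1 was lower with one of -0.28 (edgeR FDR 0.0348), which was lost with DESeq2, with no filter and without parental library 2 or resistant library 1 or 2 (FDR 0.0698 to 0.175), whereas COL3A1 and SYP did not pass the test. These 3 markers fell alongside the pathway genes that were lower in resistant cells, and their part in the results was not tested. In bulk RNA, fewer cells of a type and less RNA per cell cannot be told apart.

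Of the 46 pathway genes, 36 had enough counts to be tested by edgeR's quasi-likelihood test. A gene passed the test at an FDR (Benjamini-Hochberg adjusted p over all 17142 genes tested) under 0.05, and was called when its absolute log2 fold change was also over 1. Among the 36, 8 were higher and 18 lower in resistant cells at this FDR, and 10 did not pass. Among all genes tested, 17.1% were higher and 18.4% lower. Those called numbered 2 higher, ID3 and TGFBR2, against 2.53% of all genes, and 5 lower, FST, INHA, INHBA, INHBB and TGFB2, against 2.84% of all genes. The median log2 fold change was -0.17 over the 36 genes and 0.0038 over all genes tested. In 30 of the 36 the CPM of the 3 parental and 3 resistant libraries did not overlap, 9 of them higher and 21 lower in resistant cells, which held for 44.8% of all genes. The median level of the tested pathway genes was 23.4 CPM, against 19.6 CPM for all genes tested. FST, INHA and TGFB2 passed the filter on low counts, which required 0.606 CPM in 3 libraries, through the parental libraries alone and would not have been tested at their resistant level. The counts and medians above include these 3. Over the 33 genes that passed the filter in both groups, 8 were higher and 15 lower at an FDR under 0.05, 2 were called higher and 2 lower, and the median log2 fold change was -0.14.

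**Figure D1:**
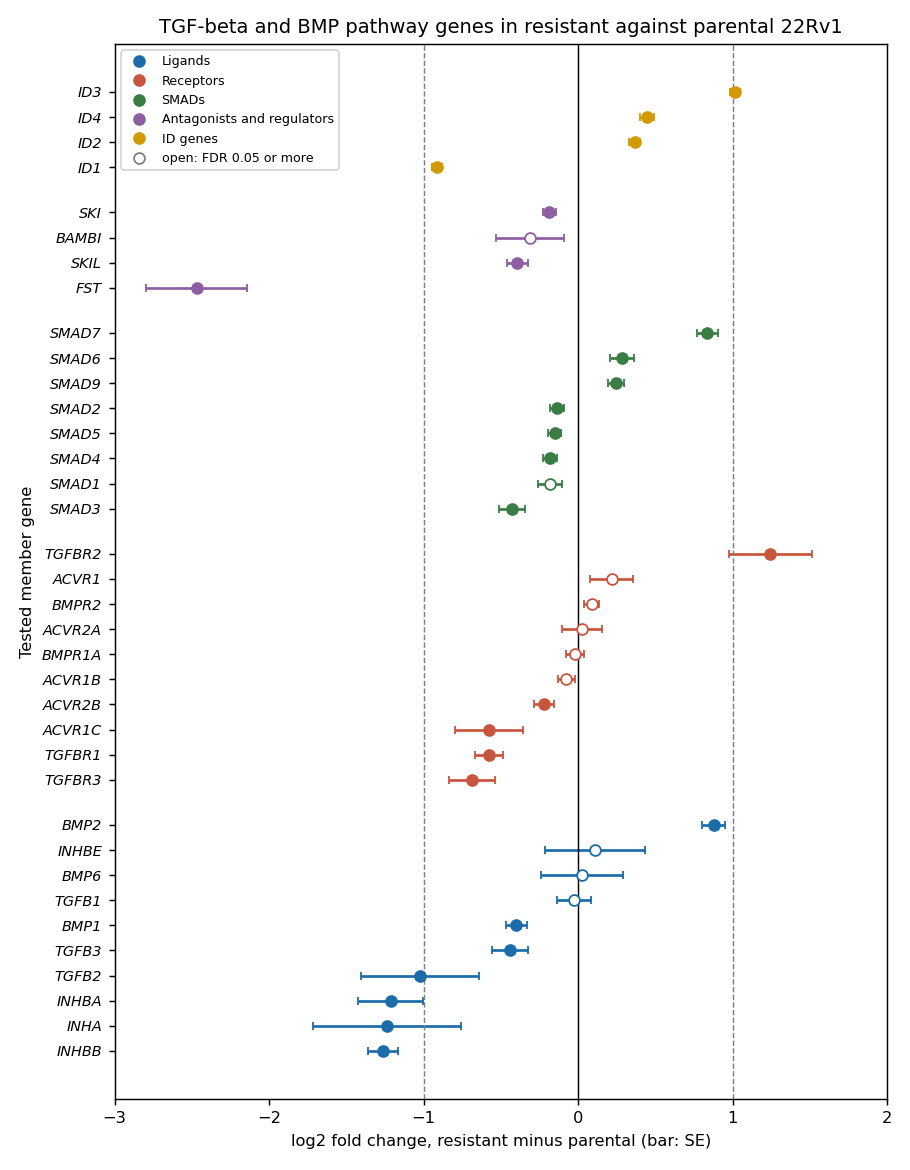
Log2 fold change (resistant minus parental, horizontal axis) of the 36 tested pathway genes, grouped by role, with bars for the SE and open points for genes with an FDR of 0.05 or more, and dashed lines at the fold threshold of 1 in either direction. Beyond the dashed lines lie FST, the activin and inhibin genes INHA, INHBA and INHBB and, just past the line, TGFB2 on the lower side, and TGFBR2 and, just past the line, ID3 on the higher side.

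Of 10 tested ligand genes, 6 passed the test lower, where 18.4% of all genes tested did, and 1, BMP2, higher, where 17.1% did. The median over the 10 was -0.42 on the log2 scale. INHA and TGFB2 were tested through their parental level alone and missed an FDR of 0.05 with DESeq2. Without them, 4 of 8 ligand genes were lower and the median was -0.21. Lower genes were led by those encoding activin and inhibin subunits. INHBB encodes the beta B subunit of activin and inhibin (ENSG00000163083, chromosome 2, 120346143 to 120351808 on hg38, plus strand), and its level in libraries 1, 2 and 3 was 27.8, 28.2 and 32.2 CPM in parental and 10.1, 11.8 and 14.7 CPM in resistant libraries. All 3 parental libraries lay above all 3 resistant libraries, with a log2 fold change of -1.26 (SE 0.0977, edgeR FDR 3.66e-14). INHBA, the gene of the beta A subunit (ENSG00000122641, chromosome 7, 41667168 to 41705834 on hg38, minus strand), measured 4.99, 4.11 and 5.84 CPM in parental and 1.87, 2.52 and 2.03 CPM in resistant libraries. The groups did not overlap, and INHBA fell with a log2 fold change of -1.21 (SE 0.211, edgeR FDR 9.67e-06). INHA encodes the alpha subunit, which turns an activin dimer into an inhibin (ENSG00000123999, chromosome 2, 219569162 to 219575713 on hg38, plus strand). It had few counts, 17, 11 and 13 counts in parental and 5, 8 and 4 counts in resistant libraries. Every parental library was still above every resistant one, with a log2 fold change of -1.24 (SE 0.477, edgeR FDR 0.0389), but this call depended on the libraries: without parental library 1 or 3, or resistant library 1 or 3, the FDR rose to between 0.108 and 0.161, and with DESeq2 to 0.124. INHA also lies opposite to OBSL1, which had up to 628 counts, and since no source used here states whether counting used strand, reads of the pair cannot be separated. INHBE, another subunit gene, measured 1.28, 1.49 and 1.15 CPM in parental and 0.965, 1.70 and 1.602 CPM in resistant libraries, and its groups overlapped, with a log2 fold change of 0.11 (SE 0.325, edgeR FDR 0.836).

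Compared per length, as FPKM (CPM divided by the gene length in kilobases, computed from the deposited counts and gene lengths), the 4 tested subunit genes summed to 10.7 ± 0.847 FPKM in parental and 4.74 ± 0.824 FPKM in resistant cells (mean ± SD, n = 3 each). INHBB made up most of this in both groups, 85.8% ± 1.08 in parental and 80.2% ± 3.89 in resistant cells. The share of INHBE went from 4.09% ± 0.794 to 9.85% ± 1.65 while its own level did not pass the test.

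Among the TGF-beta ligand genes, TGFB1 was the most abundant by FPKM, with 14.6, 11.5 and 11.6 CPM in parental and 11.6, 12.4 and 13.1 CPM in resistant libraries. Its groups overlapped, and the log2 fold change was -0.03 (SE 0.111, edgeR FDR 0.881). TGFB1 overlaps the abundant gene HNRNPUL1 on the genome, which had up to 5943 counts. TGFB2 (ENSG00000092969, chromosome 1, 218346235 to 218444619 on hg38, plus strand) was close to the detection limit, with 23, 20 and 17 counts in parental and 9, 11 and 9 counts in resistant libraries. Its groups did not overlap, with a log2 fold change of -1.02 (SE 0.382, edgeR FDR 0.0328). The FDR of TGFB2 was past 0.05 when any library but resistant library 2 was left out, with values of 0.0638 to 0.114, and was 0.102 with DESeq2. TGFB3 measured 12.2, 11.02 and 12.7 CPM in parental and 8.69, 8.63 and 8.997 CPM in resistant libraries. Each resistant library was lower than any of the parental ones, with a log2 fold change of -0.44 (SE 0.116, edgeR FDR 0.00221). TGFB3 lies opposite to IFT43, which had up to 355 counts.

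Per length, INHBB was the ligand gene with the highest mean level in parental cells, at 9.17 FPKM against 5.86 FPKM for BMP2, and BMP2 was the highest in resistant cells, at 10.8 FPKM against 3.805 FPKM for INHBB. The order in parental cells depends on the listed gene lengths. In mean CPM the highest ligand gene was BMP1 in parental cells, at 42.3 against 29.4 for INHBB, and BMP2 in resistant cells, at 38.9. BMP2 encodes a secreted BMP that signals through the BMP type I receptors, and its level was 23.5, 19.9 and 19.96 CPM in parental and 39.1, 38.8 and 38.8 CPM in resistant libraries. The resistant libraries differed little among themselves and all lay above the parental ones, with a log2 fold change of 0.88 (SE 0.0743, edgeR FDR 5.62e-13). BMP1 is named with the BMPs but encodes a metalloprotease that cleaves procollagen and the BMP antagonist chordin. It measured 39.6, 44.01 and 43.4 CPM in parental and 32.9, 29.4 and 33.7 CPM in resistant libraries. The groups stood apart, with a log2 fold change of -0.40 (SE 0.0676, edgeR FDR 6.01e-06). BMP6 overlapped between the groups at 1.97, 1.85 and 1.95 CPM in parental and 2.35, 1.63 and 1.85 CPM in resistant libraries, with a log2 fold change of 0.02 (SE 0.267, edgeR FDR 0.958).

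The other 7 ligand genes had too few counts to be tested. BMP10 and BMP15 had 0 counts in all 6 libraries, which allows up to 3 counts per library. BMP3 had 0 counts in every parental library and 1, 1 and 2 in the resistant libraries. BMP4 had the most of them, 16, 5 and 3 counts in parental and 4, 3 and 5 in resistant libraries, so parental library 1 carried most of its parental counts. BMP5, BMP7 and INHBC had at most 10, 8 and 9 counts in any library, and their groups overlapped.

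**Figure D2:**
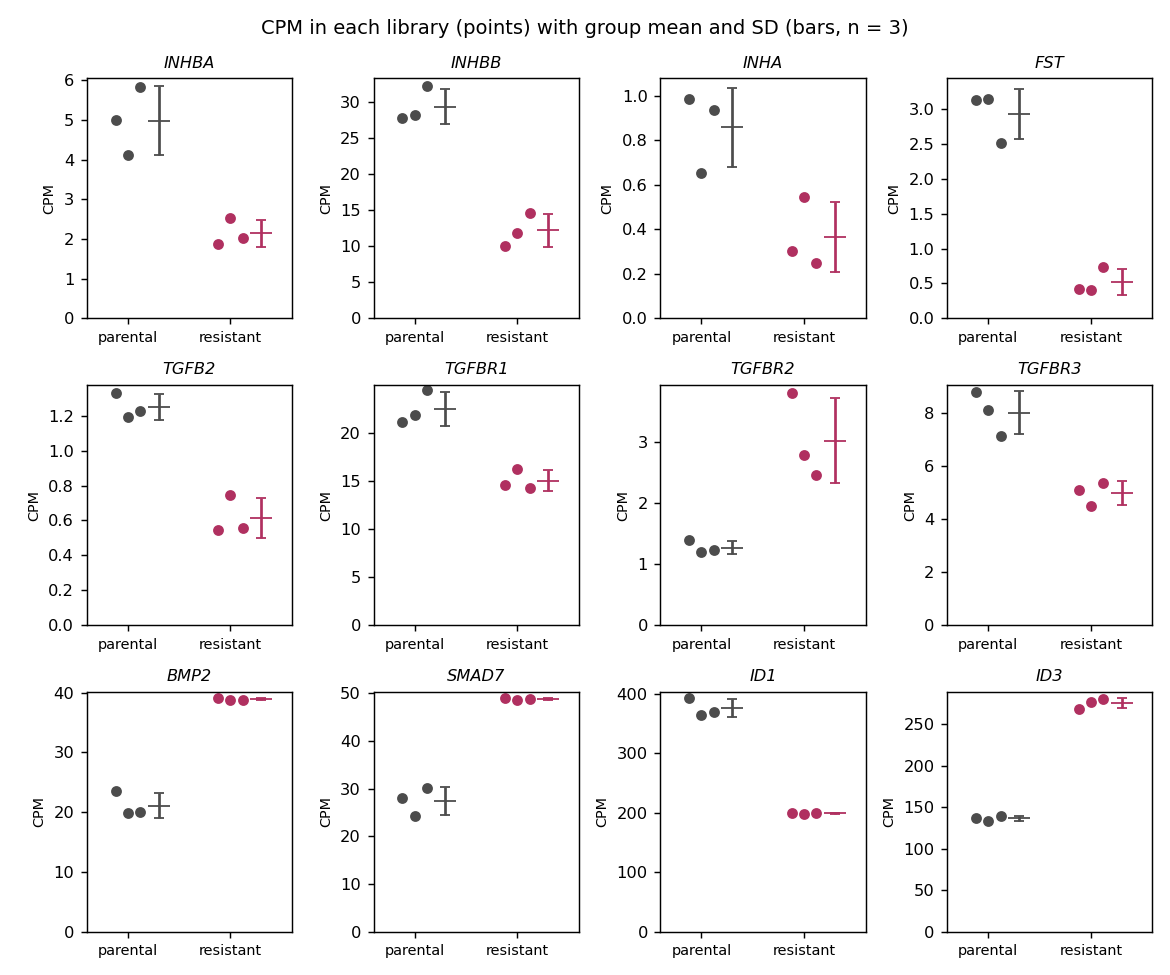
CPM of 12 pathway genes in each of the 3 parental (grey) and 3 resistant (red) libraries, with the group mean and SD beside the points and each vertical axis starting at 0. The 12 were picked among genes called or with the largest changes that passed the test, so groups standing apart were likely in any case. In each of the 12 panels the points of the groups do not overlap, which held for 44.8% of all genes tested. TGFBR2, BMP2, SMAD7 and ID3 are the panels with the resistant libraries on top. FST, INHA and TGFB2 were tested through their parental level alone.

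Of 10 tested receptor genes, 4 passed the test lower, where 18.4% of all genes tested did, and 1 higher, where 17.1% did, and their median log2 fold change was -0.05. The 4 include ACVR1C, which DESeq2 did not pass. These counts are small and are not read as a shift of the receptor genes. The receptors of TGF-beta itself changed in opposite directions. TGFBR2, the type II receptor that binds TGF-beta (ENSG00000163513, chromosome 3, 30606502 to 30694142 on hg38, plus strand), had 24, 20 and 17 counts in parental and 63, 41 and 40 counts in resistant libraries, or 1.39, 1.19 and 1.23 CPM in parental and 3.80, 2.79 and 2.47 CPM in resistant libraries. Each resistant library was above every parental library, with resistant library 1 the highest, and a log2 fold change of 1.24 (SE 0.268, edgeR FDR 0.000238). Leaving out resistant library 1 gave its smallest log2 fold change, 1.04, still called. TGFBR1, the type I receptor that TGFBR2 activates, measured 21.1, 21.9 and 24.4 CPM in parental and 14.5, 16.3 and 14.3 CPM in resistant libraries. It was lower in all resistant libraries, with a log2 fold change of -0.58 (SE 0.0896, edgeR FDR 1.32e-06). TGFBR3, or betaglycan, presents TGF-beta to the signalling receptors and also binds inhibin. Its level was 8.76, 8.10 and 7.13 CPM in parental and 5.07, 4.49 and 5.36 CPM in resistant libraries. The groups did not overlap, with a log2 fold change of -0.69 (SE 0.150, edgeR FDR 0.000277).

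ACVR1C, the type I receptor ALK7, measured 3.77, 3.87 and 3.17 CPM in parental and 1.99, 2.72 and 2.59 CPM in resistant libraries. The groups were apart but close, with a log2 fold change of -0.58 (SE 0.220, edgeR FDR 0.0370). This result was lost without parental library 1 or 2 or resistant library 1, with FDR values of 0.0908 to 0.161, and its FDR was 0.102 with DESeq2 and 0.0563 with no filter. ACVR2B, an activin type II receptor, was lower by a smaller amount, with a log2 fold change of -0.22 (SE 0.0644, edgeR FDR 0.00570), which was lost without resistant library 1 (FDR 0.0861). ACVR1B, the activin type I receptor ALK4 and the most abundant receptor at 8.30 FPKM, did not pass the test, with a log2 fold change of -0.08 (SE 0.0577, edgeR FDR 0.325).

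BMPR2, BMPR1A and ACVR1, through which BMPs signal, did not pass the test. BMPR2, the type II receptor of BMPs, had a log2 fold change of 0.09 (SE 0.0490, edgeR FDR 0.172), BMPR1A, a type I receptor, one of -0.02 (SE 0.0592, edgeR FDR 0.816), and ACVR1, the type I receptor ALK2, one of 0.22 (SE 0.139, edgeR FDR 0.239). ACVR2A, a type II receptor shared by activins and BMPs, was at 0.02 (SE 0.130, edgeR FDR 0.910), and it lies opposite to ORC4, which had up to 473 counts. ACVRL1, a type I receptor known from endothelium, had at most 7 counts in any library and was not tested. Per length, BMPR2 made up 59.6% ± 0.526 of the summed FPKM of the 4 type II receptor genes in parental and 61.1% ± 1.40 in resistant cells, and TGFBR2 remained the least abundant of the 4, at 2.42% ± 0.292 and 5.62% ± 1.66.

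All 8 SMAD genes were tested. None was called by edgeR, limma-voom or DESeq2. At an FDR under 0.05 in edgeR 3 were higher, where 17.1% of all genes tested were, and 4 lower, where 18.4% were. All 8 had an unadjusted p under 0.05 in edgeR, which has no share of all genes beside it and is not read as a result. The inhibitory SMAD genes were higher. SMAD7, which recruits ubiquitin ligases to the type I receptor and is itself a target of the pathway, measured 28.1, 24.2 and 30.1 CPM in parental and 49.0, 48.7 and 48.8 CPM in resistant libraries. The resistant libraries were nearly equal to each other and well above the parental ones, with a log2 fold change of 0.83 (SE 0.0687, edgeR FDR 2.56e-13). SMAD6, which acts mainly on BMP signalling, rose less, with a log2 fold change of 0.29 (SE 0.0770, edgeR FDR 0.00300). Together SMAD6 and SMAD7 went from 8.01 ± 0.677 to 12.8 ± 0.0971 FPKM (mean ± SD, n = 3 each), and SMAD7 made up 68.1% ± 1.73 of that sum in parental and 75.8% ± 0.881 in resistant cells.

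Of the SMAD genes that transmit TGF-beta and activin signals, SMAD3 fell the most. Its level was 24.4, 24.1 and 27.5 CPM in parental and 18.1, 18.4 and 19.8 CPM in resistant libraries. Every resistant library was below every parental one, with a log2 fold change of -0.43 (SE 0.0823, edgeR FDR 4.94e-05). SMAD2 fell by less, at -0.14 (SE 0.0447, edgeR FDR 0.0135), which was lost without parental library 2 or resistant library 3 (FDR 0.131 and 0.0863). SMAD4, the partner shared by both branches, was at -0.18 (SE 0.0466, edgeR FDR 0.00180). Genes of the BMP-branch SMADs differed among themselves. Per length, SMAD5 was above SMAD9 in parental cells, at 13.27 ± 0.678 against 11.25 ± 0.416 FPKM, and below it in resistant cells, at 11.95 ± 0.328 against 13.31 ± 1.01 FPKM (mean ± SD, n = 3 each). This order depends on the listed gene lengths. In mean CPM, SMAD5 was above SMAD9 in both groups, at 120 against 64.4 in parental and 108 against 76.2 in resistant cells. SMAD5 fell, with a log2 fold change of -0.15 (SE 0.0413, edgeR FDR 0.00297). SMAD9 rose, with a log2 fold change of 0.25 (SE 0.0521, edgeR FDR 0.000201). SMAD1 did not pass, with a log2 fold change of -0.18 (SE 0.0796, edgeR FDR 0.0707), even though its libraries did not overlap between the groups.

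Of the 6 antagonists and regulators, 4 were tested and 3 of these passed the test, all lower, where 18.4% of all genes tested were. FST was tested through its parental level alone, and without it 2 of 3 were lower and 0 called. These counts are small and are not read as a shift of the antagonists and regulators. The change of FST was the largest of any tested pathway gene, a rank it holds only because its parental level let it be tested. With at least 10 counts required in every library FST was not tested. FST encodes follistatin, a secreted protein that binds activins and blocks them (ENSG00000134363, chromosome 5, 53480409 to 53487134 on hg38, plus strand), and it had 54, 53 and 35 counts in parental and 7, 6 and 12 counts in resistant libraries, or 3.13, 3.16 and 2.52 CPM in parental and 0.422, 0.408 and 0.740 CPM in resistant libraries. The highest resistant library stood far below the lowest parental one, with a log2 fold change of -2.47 (SE 0.328, edgeR FDR 5.55e-08). Leaving out any single library kept FST called, with log2 fold changes of -2.80 to -2.33. FST and the activin beta subunit genes INHBA and INHBB, which encode the proteins that follistatin binds, were each lower in the resistant libraries. A link between these changes was not tested. SKIL encodes SnoN, a corepressor that binds SMADs, and measured 41.8, 38.2 and 38.5 CPM in parental and 30.7, 30.9 and 28.7 CPM in resistant libraries. It was lower in every resistant library, with a log2 fold change of -0.39 (SE 0.0673, edgeR FDR 7.39e-06). SKI, a related corepressor and the most abundant gene of this role at 17.3 FPKM, also fell, with a log2 fold change of -0.19 (SE 0.0408, edgeR FDR 0.000274). BAMBI, a receptor decoy that lacks a kinase, had 64, 52 and 40 counts in parental and 39, 40 and 45 counts in resistant libraries, and did not pass with a log2 fold change of -0.31 (SE 0.220, edgeR FDR 0.288). The BMP antagonist genes GREM1 and NOG were at 0 counts in all 6 libraries and at no more than 1 count in any library, respectively.

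ID1 to ID4 encode helix-loop-helix proteins without a DNA-binding domain, which hold other transcription factors away from DNA. These were by far the most abundant of the pathway genes per length. All 4 passed the test, where 35.5% of all genes tested did in either direction, and ID1 went in the opposite direction to the rest. ID1 (ENSG00000125968, chromosome 20, 31605283 to 31606515 on hg38, plus strand) measured 393, 365 and 370.1 CPM in parental and 200.4, 199 and 199 CPM in resistant libraries. The resistant libraries lay close together and below all parental libraries, with a log2 fold change of -0.92 (SE 0.0315, edgeR FDR 5.94e-26), which is short of the fold threshold. ID3 (ENSG00000117318, chromosome 1, 23557918 to 23559794 on hg38, minus strand) measured 136, 134 and 139 CPM in parental and 269, 276 and 281 CPM in resistant libraries. Its libraries moved the other way with no overlap, with a log2 fold change of 1.01 (SE 0.0333, edgeR FDR 1.11e-26). That value stood at the fold threshold and slipped under it, to 0.998 without parental library 2, to 0.999 without resistant library 3 and to 0.996 when library size alone replaced TMM. ID4 measured 84.9, 77.0 and 80.3 CPM in parental and 110.1, 108 and 112 CPM in resistant libraries. It was higher in each resistant library, with a log2 fold change of 0.44 (SE 0.0434, edgeR FDR 2.93e-11). ID2 measured 142, 151 and 138 CPM in parental and 181, 185 and 189 CPM in resistant libraries. Its groups were also apart, with a log2 fold change of 0.36 (SE 0.0366, edgeR FDR 6.22e-11).

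The 4 ID genes together summed to 481 ± 12.9 FPKM in parental and 446 ± 4.93 FPKM in resistant cells (mean ± SD, n = 3 each), and the makeup of the sum shifted far more than the sum itself. The direction of the sum depends on the listed gene lengths, as the summed mean CPM of the 4 was higher in resistant cells. ID1 held 64.4%, 62.8% and 63.3% of the sum in parental libraries and 36.9%, 36.3% and 35.8% in resistant libraries. ID3 held 15.3%, 15.8% and 16.3% in parental and 33.9%, 34.6% and 34.6% in resistant libraries. In parental cells ID1 exceeded ID3 by a wide margin, and in resistant cells the ID1 share stayed above the ID3 share in each library by a small one. The order in resistant cells depends on the listed gene lengths. In mean CPM, ID1 was above ID3 in parental cells, at 376 against 136, and below it in resistant cells, at 199 against 275. ID2 went from 13.6% ± 0.841 to 18.8% ± 0.197 and ID4 from 7.16% ± 0.184 to 10.5% ± 0.146.

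**Figure D3:**
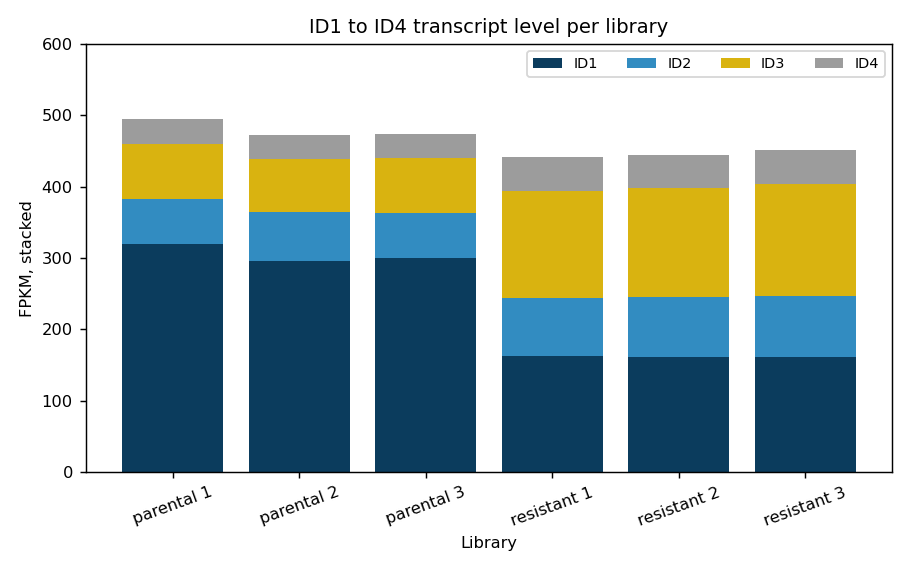
Stacked FPKM of ID1, ID2, ID3 and ID4 (vertical axis) in each of the 3 parental and 3 resistant libraries (horizontal axis). The stacks reach similar heights, between 441 and 495 FPKM, while the ID1 part shrinks and the ID3 part grows in all 3 resistant libraries. The heights and the order of the parts depend on the listed gene lengths.

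**Figure D4:**
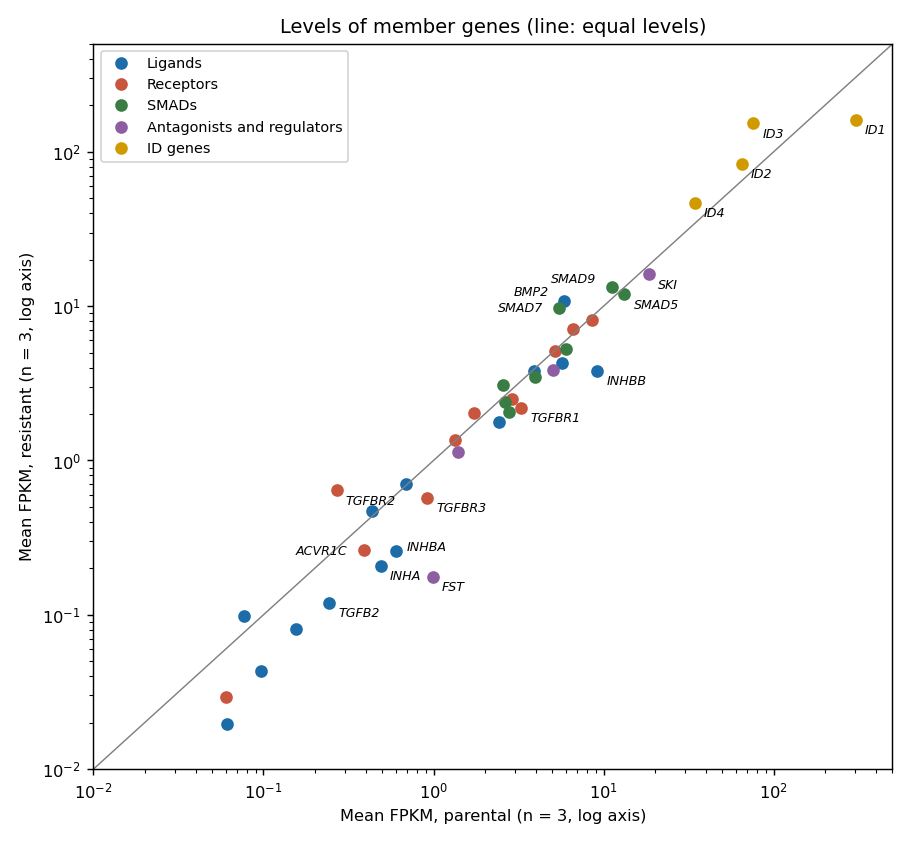
Mean FPKM of each pathway gene in resistant (vertical, log axis) against parental cells (horizontal, log axis), with n = 3 libraries per group, 1 point per gene colored by role and a line for equal levels, leaving out genes at 0 in every library of a group. ID genes stand at the top right and lie on both sides of the line, and FST, INHA, INHBA and INHBB lie below it.

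Several pathway genes are neighbours on the genome, and neighbours did not always move together. SMAD6 and SMAD3 lie on chromosome 15, at 66702228 to 66782848 and 67063763 to 67195195, and SMAD6 was higher whereas SMAD3 was lower. SMAD2 and SMAD7 lie on chromosome 18, at 47808957 to 47931146 and 48919853 to 48952052, and again SMAD7 was higher and SMAD2 lower. Medians of the tested genes around some pathway genes are given as values only. Called genes were selected for a large fold change, so a median nearer to 0 around them was likely in any case. A change of the region was not tested. Within 1 Mb of INHBB the 11 other tested genes had a median log2 fold change of -0.05, and within 1 Mb of FST the 7 other tested genes had one of 0.01. Near ID3, 29 tested genes had a median of 0.04, and near ID1, 17 had a median of -0.17. For TGFBR2 the median over 3 genes was 0.19. INHBA had 1 tested neighbour, at -0.46.

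Other genes of the pathway, from lists of further ligands, receptors, antagonists, intracellular regulators and targets, were looked at in the same test. Of 76 such genes, 49 were tested and their median log2 fold change was -0.05. At an FDR under 0.05, 10 were higher, or 20.4% against 17.1% of all genes tested, and 15 lower, or 30.6% against 18.4%. Called were 0 higher, against 2.53% of all genes, and 2 lower, or 4.08% against 2.84%. The counts of single lists given next are to be read against the same shares. At an unadjusted p under 0.05 edgeR gave 10 higher, a count that has no share of all genes beside it and is not read as a result. In limma-voom and DESeq2, too, 0 were called higher. Both called genes are known targets. CCN2, listed under its older symbol CTGF, encodes connective tissue growth factor and is induced by TGF-beta. The gene (ENSG00000118523, chromosome 6, 131948176 to 131951373 on hg38, minus strand) had 56, 54 and 26 counts in parental and 17, 13 and 9 counts in resistant libraries. The groups did not overlap, with a log2 fold change of -1.77 (SE 0.313, edgeR FDR 1.35e-05). MSX1, a homeobox gene induced by BMPs (ENSG00000163132, chromosome 4, 4859666 to 4863936 on hg38, plus strand), had 41, 39 and 44 counts in parental and 9, 16 and 12 counts in resistant libraries. It too was lower in each resistant library, with a log2 fold change of -1.73 (SE 0.318, edgeR FDR 2.51e-05). CCN2 and MSX1 passed the filter on low counts through the parental libraries alone, and the counts of lower genes above include both. With at least 10 counts required in every library neither was tested, and 0 of 45 tested genes of the further lists were called lower. Of the 9 tested target genes, 2 passed the test higher and 4 lower, with CCN2 and MSX1 among the 4. HEY1, a transcriptional repressor that responds to BMP and Notch signals, measured 2.73, 2.74 and 2.52 CPM in parental and 5.25, 4.28 and 5.67 CPM in resistant libraries. It rose with a log2 fold change of 0.93 (SE 0.193, edgeR FDR 0.000158). ATOH8, a BMP target, was lower with a log2 fold change of -0.62 (SE 0.144, edgeR FDR 0.000619), and CDKN2B, which encodes the cell cycle inhibitor p15 and responds to TGF-beta, was higher with a log2 fold change of 0.46 (SE 0.176, edgeR FDR 0.0382). The result for CDKN2B was lost when any library but parental library 1 was left out, with FDR values of 0.0578 to 0.119. It was also lost with DESeq2 (FDR 0.105) and with no filter (edgeR FDR 0.0670).

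All 16 other intracellular regulators were tested, and 4 were higher and 2 lower, beside 17.1% and 18.4% of all genes, so the counts are not read as a result about this list. The largest changes that passed the test were in NEDD4L and PMEPA1, whose products restrain the pathway. NEDD4L, a ubiquitin ligase that acts on activated SMAD2 and SMAD3, measured 37.0, 35.7 and 34.0 CPM in parental and 67.9, 68.9 and 66.8 CPM in resistant libraries. Its groups were far apart relative to their spread, with a log2 fold change of 0.93 (SE 0.0565, edgeR FDR 1.98e-17). PMEPA1, a TGF-beta and androgen target whose product sequesters SMADs, measured 181, 168 and 174 CPM in parental and 289, 282 and 297 CPM in resistant libraries. It was higher in each resistant library, with a log2 fold change of 0.73 (SE 0.0333, edgeR FDR 1.10e-21). SMURF1, a ubiquitin ligase for SMADs, was higher by a small amount, with a log2 fold change of 0.18 (SE 0.0538, edgeR FDR 0.00630), and this was lost without parental library 1 (FDR 0.0663). The SMAD corepressor gene TGIF1 was lower with a log2 fold change of -0.35 (SE 0.0928, edgeR FDR 0.00230), and LEMD3, an inner nuclear membrane protein gene whose product binds SMADs, was lower with a log2 fold change of -0.19 (SE 0.0444, edgeR FDR 0.000547).

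Of 12 tested genes for other extracellular antagonists and latent ligand binders, 6 were lower and 1 higher. FSTL3, a follistatin-like activin binder, measured 28.1, 25.8 and 28.3 CPM in parental and 17.9, 17.8 and 21.1 CPM in resistant libraries. The groups did not overlap, with a log2 fold change of -0.53 (SE 0.0823, edgeR FDR 1.20e-06). SOSTDC1, a BMP and Wnt antagonist, measured 6.21, 7.68 and 3.96 CPM in parental and 2.17, 2.79 and 4.75 CPM in resistant libraries. Parental library 3 lay below resistant library 3, so the groups overlapped, with a log2 fold change of -0.89 (SE 0.218, edgeR FDR 0.00111). With DESeq2 the FDR of SOSTDC1 was 0.114. LTBP1 and LTBP4, whose products hold latent TGF-beta in the matrix, were lower with a log2 fold change of -0.42 (SE 0.0832, edgeR FDR 7.07e-05) and a log2 fold change of -0.35 (SE 0.0414, edgeR FDR 3.76e-09). FSTL1, a secreted glycoprotein gene related to follistatin, was lower with a log2 fold change of -0.47 (SE 0.171, edgeR FDR 0.0273). This result was lost without parental library 1 or 3 or resistant library 1, with FDR values of 0.0558 to 0.133. It was also lost with DESeq2 (FDR 0.0833) and with no filter (edgeR FDR 0.0510).

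Among 6 tested genes for other receptors and coreceptors, 2 were higher and 2 lower. BMPR1B, the type I BMP receptor that stands beside BMPR1A, measured 16.2, 18.6 and 16.9 CPM in parental and 26.5, 28.6 and 29.1 CPM in resistant libraries. All resistant libraries were above all parental libraries, with a log2 fold change of 0.70 (SE 0.0816, edgeR FDR 2.88e-09). CFC1, a coreceptor for NODAL, was higher with a log2 fold change of 0.75 (SE 0.0541, edgeR FDR 4.41e-15), but it has a near-identical copy, CFC1B, with which reads could be shared, so its value is uncertain. The BMP coreceptor gene RGMB was lower with a log2 fold change of -0.44 (SE 0.102, edgeR FDR 0.000620), and NEO1, the receptor gene for RGM proteins, was lower with a log2 fold change of -0.26 (SE 0.0542, edgeR FDR 0.000127). Of 17 other ligand genes, 6 were tested, and BMP8B was lower with a log2 fold change of -0.70 (SE 0.121, edgeR FDR 8.84e-06) while AMH, the anti-Müllerian hormone gene, was higher with a log2 fold change of 0.42 (SE 0.116, edgeR FDR 0.00326). The other 4 tested ligand genes did not pass.

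**Figure D5:**
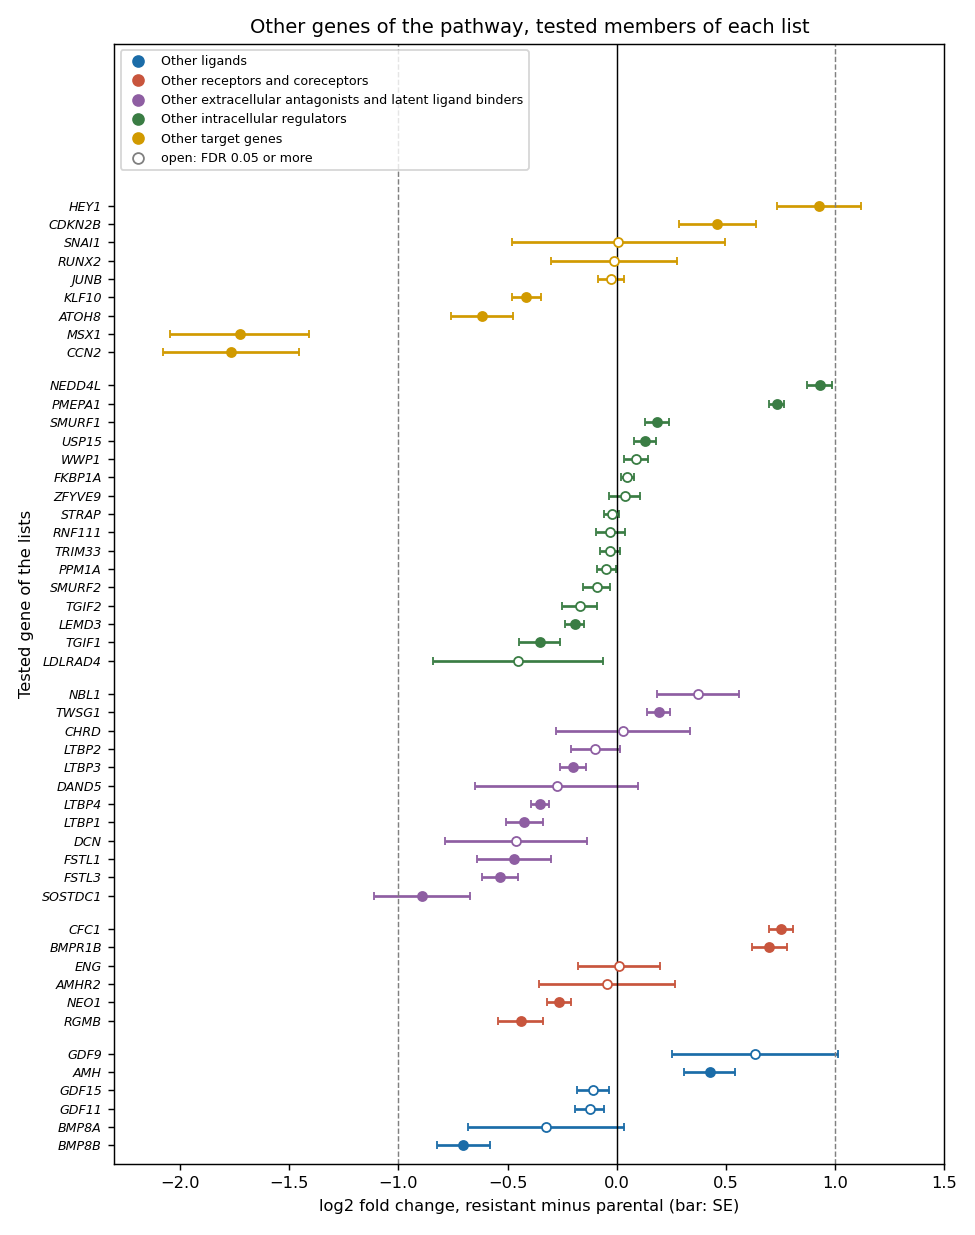
Log2 fold change (resistant minus parental, horizontal axis) of the 49 tested other genes of the pathway, colored by list, with bars for the SE, open points for genes with an FDR of 0.05 or more and dashed lines at the fold threshold of 1 in either direction. CCN2 and MSX1 lie past the lower line, at -1.77 and -1.73, and NEDD4L and HEY1 come closest to the upper line, both at 0.93.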

How the data were processed

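RNA-Seq was measured in 6 libraries, 3 parental (vehicle) and 3 BL-B01D1-resistant, grouped by the sample labels. The authors mapped reads to hg38 with HISAT2 (version 2.0.5), and their processing notes also name fastp. They deposited raw counts per gene from featureCounts (version 1.5.0-p3), with gene name, position, biotype and, as another quantity, the gene length in bases deposited beside the counts. The annotation release, the strand setting and any filter are not given in the sources used here. The number of unused columns of sample values was 0. Human sequences were not used.

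From these counts, low genes were removed with filterByExpr, library sizes were scaled with TMM (factors of 0.993 to 1.009), and resistant libraries were tested against parental ones by the quasi-likelihood method of edgeR 4.0.16, run in R 4.3.3. The FDR is the Benjamini-Hochberg adjusted p over 17142 genes. The SE was the size of the log2 fold change divided by the square root of F. FPKM used the listed gene lengths. A count of 0 allows up to 3 counts, and such floors cover counting error only. edgeR estimated a biological coefficient of variation of 3.51%. Within a group, libraries differed beyond sampling noise (chi-square divided by its degrees of freedom, 1.76 to 2.38), so all 6 were kept as separate samples. Nothing states that these were separate cultures, so p-values measure only the spread between these libraries, which may be technical. Replicate numbers 1 to 3 come from the sample titles. No value was tested alone.

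In 8 alternatives the processing was varied: limma-voom (limma 3.58.1, the study's own package), DESeq2 (1.42.0), library size alone, no filter, a minimum of 10 counts in every library, protein-coding genes only, the replicate number as a block, and leaving out each library in turn. The edgeR, limma-voom, DESeq2 and replicate-block fits were tested on simulated data. Full values are given for called genes and, among the other pathway genes at an FDR under 0.05, for the 12 with the largest absolute fold change. Names with a level only go to the most abundant gene of each role and to untested genes. Genes of the further lists are named where called or among the 5 largest of their list at an FDR under 0.05. Non-passing members, members given only with a fold change, its SE and its FDR, and the neighbouring or overlapping genes were named outside this rule, after their values were seen. The pathway genes, lists and tests were chosen with earlier results of these data known.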

Additional observations from a re-analysis of the deposited data

How the results depend on the processing

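Of 244 recomputed fold changes of the 19 pathway genes given with full values, 225 kept their side of the FDR threshold and 19 lost it, all of INHA, TGFB2 or ACVR1C, and of 271 for the 21 named genes of the further lists 257 kept it, with no change of direction in either group of genes. Of 221 for the other 17 tested pathway genes, 206 kept side and direction. When 1 library was left out, the direction turned for 5 genes near 0 that passed under no alternative, with log2 fold changes over those settings of BMP6 (-0.1373 to 0.131), INHBE (-0.0318 to 0.3306), TGFB1 (-0.0924 to 0.0981), ACVR2A (-0.1284 to 0.1004) and BMPR1A (-0.0927 to 0.0291), and TGFB1 was above 0 without parental library 1 or resistant library 1. SMAD1 passed with library size alone (FDR 0.048) and BMPR2 without resistant library 1 (FDR 0.0255). Pathway genes called lower, 5 as reported, numbered 3 with DESeq2 and 3 with no filter (both without INHA and TGFB2), 2 with at least 10 counts in every library, where FST, INHA and TGFB2 were not tested because too few counts remained, and 3 to 5 when 1 library was left out. Those called higher, 2 as reported, numbered 1 with library size alone and 1 to 2 when 1 library was left out. ID3 was the gene lost, without parental library 2 or resistant library 3. With at least 10 counts the median log2 fold change was -0.13 over 33 genes, and 0 further-list genes were called lower because CCN2 and MSX1 were not tested. Leaving out 1 library gave 0 to 1 further-list genes called higher, HEY1 without resistant library 2 and GDF9 without resistant library 3, and SOSTDC1 was then called lower without parental library 3 or resistant library 3. With no filter SNAI2 was also called lower. FST was called in all 12 alternatives that tested it, and INHBA, INHBB and TGFBR2 in all 13. Libraries with the same replicate number did not deviate together (correlations across genes of -0.0197 to -0.0081), so the numbers were not taken to pair the samples. With a replicate block, 8 pathway genes were higher and 17 lower at an FDR under 0.05, 2 were called higher and 4 lower, and the call lost was INHA, with an FDR of 0.0574. No setting moved the median of all genes by more than 0.1. At this depth changes in the 10 untested genes were not detectable, and for genes below about 1 CPM the calls rest on few counts.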
